A study of Mus musculus with 3 samples.

Results

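The peaks described here are ATRX ChIP-seq peaks that lie in the last 2 Mb of each mouse autosome, the stretch next to the distal telomere. A peak was a member when its start lay no more than 2 Mb before the largest peak end found on its chromosome in either of the deposited lists, a position called the assembled end here. The rule gave 1686 peaks of the 112153 in the control list and 1667 of the 105674 in the MICAL1-FL list, 3353 of 217827 in all. Of 47042 annotated autosomal genes, 1 ended beyond the assembled end of its chromosome, so the last peaks lie close to the end of the assembly, although no repeat or telomere annotation was used to define the stretch.

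Both libraries came from primary neurons of C57BL6/J mouse embryos taken between E15.5 and E17.5. They received lentivirus on day 5 of culture and were harvested on day 14 (DIV14). Control neurons carried mCherry, a red fluorescent protein, and the other neurons carried MICAL1-FL. Each condition was 1 library of fragments pulled down with an ATRX antibody after enzymatic digestion of chromatin. The labels also name 1 input, from the control cultures, that is not analysed here. With 1 library per condition no difference between the conditions can be tested: intervals below are 95% intervals of counting error, and ratios between the lists compare these libraries, not the conditions. The identifiers inside the MICAL1-FL list carry another name (TBC_M2), and the sample title was followed. Peak positions give no expression, so the neuronal label could not be set against marker genes.

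ATRX uses ATP to remodel chromatin, as other SWI/SNF-type enzymes do, and with the histone chaperone DAXX it places the histone variant H3.3 at telomeres, pericentric repeats and other tandem repeats. Many of its known sites are rich in guanine and can fold into G-quadruplexes, stacked structures of guanine that form where several runs of G follow each other. Mouse telomeres consist of repeats of TTAGGG, and mouse chromosomes have their centromere at one end, so each autosome has a single long arm ending in the subtelomere studied here. MICAL1 is a flavin monooxygenase that oxidises actin and so takes filaments apart.

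Promoters of 5 genes from the last 2 Mb are shown first, because the peaks at gene starts are where a sequence could be read. Sequences are from RefSeq (GRCm38.p6) and cover the 250 bases before the transcription start, 5′ to 3′ on the gene's strand. The first 4 were the promoters with a peak in both lists that covered at least 100 bases in each. Fgf14, with a control peak only, was added after its values were seen because it holds a telomere unit. Capitals mark the G-quadruplex motif, which is 4 runs of at least GGG, or 4 of at least CCC for the other strand, with 1 to 7 bases of any kind between runs. In Fgf14 they mark TTAGGG.
Zfp512b, chr2:181592462-181592711, minus strand: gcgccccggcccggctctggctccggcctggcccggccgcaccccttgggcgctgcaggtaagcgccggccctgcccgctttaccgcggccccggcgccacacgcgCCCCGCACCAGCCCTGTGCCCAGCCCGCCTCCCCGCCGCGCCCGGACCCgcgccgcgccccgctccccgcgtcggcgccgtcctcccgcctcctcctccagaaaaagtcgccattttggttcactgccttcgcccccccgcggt
Lrrc7, chr3:158561762-158562011, minus strand: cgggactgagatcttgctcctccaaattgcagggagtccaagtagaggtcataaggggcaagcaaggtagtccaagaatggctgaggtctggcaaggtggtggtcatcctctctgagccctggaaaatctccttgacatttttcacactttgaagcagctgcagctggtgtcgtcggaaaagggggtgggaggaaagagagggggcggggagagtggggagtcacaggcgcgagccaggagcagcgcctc
Sinhcaf, chr6:148944827-148945076, minus strand: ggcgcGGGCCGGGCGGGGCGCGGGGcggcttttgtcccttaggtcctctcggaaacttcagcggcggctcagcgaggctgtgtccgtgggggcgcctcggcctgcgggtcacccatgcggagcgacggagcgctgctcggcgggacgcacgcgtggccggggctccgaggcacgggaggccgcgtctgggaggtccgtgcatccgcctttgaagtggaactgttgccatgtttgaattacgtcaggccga
3110070M22Rik, chr13:119488385-119488634, minus strand: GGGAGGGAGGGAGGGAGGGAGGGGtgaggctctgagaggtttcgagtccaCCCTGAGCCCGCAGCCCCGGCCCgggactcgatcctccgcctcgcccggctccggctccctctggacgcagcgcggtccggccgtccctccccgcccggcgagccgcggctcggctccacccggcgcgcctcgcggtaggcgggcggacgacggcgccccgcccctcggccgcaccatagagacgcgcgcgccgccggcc
Fgf14, chr14:124192547-124192796, minus strand: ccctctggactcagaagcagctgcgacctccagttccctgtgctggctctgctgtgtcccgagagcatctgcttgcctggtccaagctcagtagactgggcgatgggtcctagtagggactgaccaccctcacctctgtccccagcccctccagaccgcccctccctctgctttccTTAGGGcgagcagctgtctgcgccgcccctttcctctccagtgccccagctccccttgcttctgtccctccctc
Zfp512b encodes a zinc finger protein, Lrrc7 the postsynaptic density protein densin, Sinhcaf a subunit of the SIN3-HDAC corepressor, and Fgf14 an intracellular FGF-family protein that modulates sodium channels. 3110070M22Rik is a RIKEN gene. Lrrc7 held no G-quadruplex motif in this window.

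Over the 19 autosomes together, peaks were about as dense in the last 2 Mb as elsewhere. The control list had 44.4 peaks per Mb in the last 2 Mb and 45.9 in the rest of the autosomes, a ratio of 0.967 (0.921 to 1.015). In the MICAL1-FL list there were 43.9 and 43.4 peaks per Mb, a ratio of 1.010 (0.962 to 1.060). Both intervals included 1. The size of the window bears on this: for the last 5 Mb the ratio was 1.12 (1.09 to 1.16) in control and 1.09 (1.06 to 1.12) in MICAL1-FL. The control interval fell below 1 without chromosome 7 (0.932, 0.886 to 0.980), and narrowly so without chromosome 14 or 16. The other end differed: the first 2 Mb that held peaks on each autosome, next to the centromere, had 1530 control and 1398 MICAL1-FL peaks. The last 2 Mb thus held 1.10 times (1.03 to 1.18) the control peaks of the first 2 Mb, and 1.19 times (1.11 to 1.28) the MICAL1-FL peaks.

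Single autosomes departed from this in both directions. The ratio of the last 2 Mb to the rest of the same autosome ran from 0.642 to 1.71 in the control list (median 0.945) and from 0.640 to 1.62 in the MICAL1-FL list (median 1.03). For control the interval lay above 1 on 3 autosomes and below on 4, and for MICAL1-FL above on 2 and below on 4. Stretches of 2 Mb depart this often anywhere: of all 1192 such windows on the autosomes, 23.7% were above and 26.8% below the rest of their chromosome in the control list, and 21.6% and 23.2% in the MICAL1-FL list. Both lists lay above 1 on 5 autosomes and below 1 on 7, and they fell on opposite sides on the other 7.

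**Figure D1:**
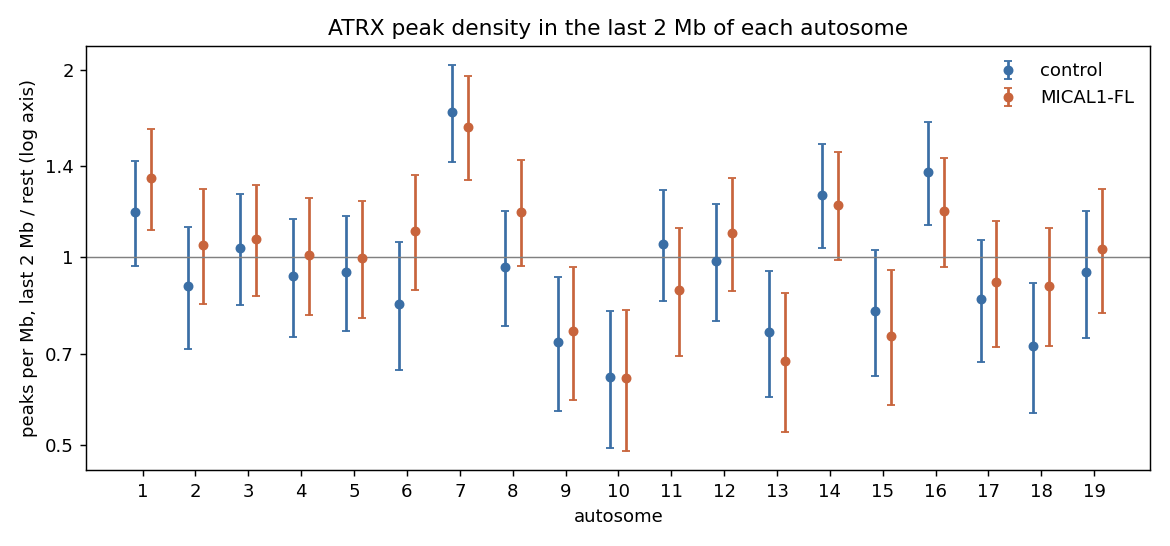
Ratio of peak density in the last 2 Mb to that in the rest of the same autosome, for chromosomes 1 to 19, with points for the control and the MICAL1-FL list and bars for the 95% counting interval on a log axis. Chromosome 7 has the highest ratio in both lists (1.71 and 1.62) and chromosome 10 the lowest (0.642 and 0.640).

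Chromosome 7 had the highest ratio in both lists. Its last 2 Mb held 129 control peaks, 1.71 times (1.42 to 2.03) the density of the rest, and 111 MICAL1-FL peaks, 1.62 times (1.33 to 1.96). By control peaks it ranked 7 of the 71 windows of that chromosome, and by MICAL1-FL peaks it ranked 12. This stretch holds Shank2, the postsynaptic scaffold gene with most peaks of all genes in the last 2 Mb, and the Fgf3, Fgf4 and Fgf15 growth factor genes. Its gene number was ordinary, with 29 protein-coding genes against 28.6 per 2 Mb in the rest of the chromosome.

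In the control list chromosome 16 followed with 115 peaks (ratio 1.37, 1.13 to 1.65) and chromosome 14 with 112 (1.2596, 1.04 to 1.52). In the MICAL1-FL list chromosome 1 followed with 116 peaks (1.34, 1.11 to 1.61) and chromosome 14 with 104 (1.21, 0.990 to 1.475). Chromosome 14 was therefore among the 3 highest in both lists, with an interval that reached below 1 in the MICAL1-FL list.

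Chromosome 10 had the lowest ratio in both lists. Its last 2 Mb held 65 control peaks (0.642, 0.495 to 0.820) and 61 MICAL1-FL peaks (0.640, 0.489 to 0.823). That stretch was crowded with genes, 84 protein-coding genes against 14.6 per 2 Mb in the rest, and 58 of them were olfactory receptor genes, which act mainly in sensory neurons of the nose. Of those 58, 54 held no peak in either list, 1 held a peak in control and 3 in MICAL1-FL. Of all autosomal protein-coding genes, 33.4% held no peak in either list. The genes are short, with a median length of 0.939 kb. Next lowest in the control list were chromosome 18 with 72 peaks (0.720, 0.562 to 0.909) and chromosome 9 with 68 (0.732, 0.567 to 0.929). In the MICAL1-FL list they were chromosome 13 with 63 (0.683, 0.524 to 0.875) and chromosome 15 with 67 (0.749, 0.579 to 0.953). On 9 of 19 autosomes the last 2 Mb held more protein-coding genes than the rest per equal length.

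On 0 of 19 autosomes did the MICAL1-FL to control ratio of the last 2 Mb have an interval that left out the ratio of the rest of the chromosome, while 8.89% of the 1192 windows differed in that way from the rest of theirs. Relative to the rest, the ratio ran from 0.844 on chromosome 11 to 1.31 on chromosome 6, with a median of 1.05. It lay above the rest on 12 autosomes and below on 7. Over all 19 together it was 1.04 (0.976 to 1.12) times that of the rest. Without the last 100 kb it was 1.08 (1.01 to 1.16), while the last 100 kb alone departed the other way, as described next.

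Within the last 2 Mb the peaks were not spread evenly. The last 100 kb of the 19 autosomes, a distance chosen after the values were seen, held 157 control peaks (133 to 184), 1.80 times the 87.2 that the density of the rest would give. They held 103 MICAL1-FL peaks (84.1 to 125), 1.25 times the 82.5 of the rest. The other 19 bins of 100 kb held 71 to 102 control peaks (median 77) and 67 to 103 MICAL1-FL peaks (median 84). The control count in the last bin was thus above every other control bin of the last 2 Mb, and the MICAL1-FL count equalled the highest of its other bins there. Bins of 250 kb were also counted, out to 5000 kb. The last held 281 control peaks. Those beginning at 2500, 2750, 3000 and 3750 kb held more (283, 298, 290 and 291), and all others fewer. For MICAL1-FL the last held 223, the bin from 3250 kb held 277, and others lay on both sides of 223. Over that distance the end was not the densest bin in either list.

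The MICAL1-FL to control ratio in the last 100 kb was 0.656 (0.507 to 0.847), against 0.947 over all autosomal peaks. Part of this is fixed by the rule, since 1 peak per autosome defines the assembled end, and on 15 autosomes that was a control peak, and on chromosomes 3, 4, 5 and 19 a MICAL1-FL peak. Without those peaks the counts were 142 and 99 and the ratio 0.697 (0.534 to 0.908). A bin this low was not unique to the end, since the bin from 300 to 400 kb had a ratio of 0.657 (0.475 to 0.903). The bins that begin at 1500 and 1900 kb had ratios of 1.32 and 1.37, with intervals that left out the autosomal ratio on the high side. The remaining bins had intervals that included it.

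**Figure D2:**
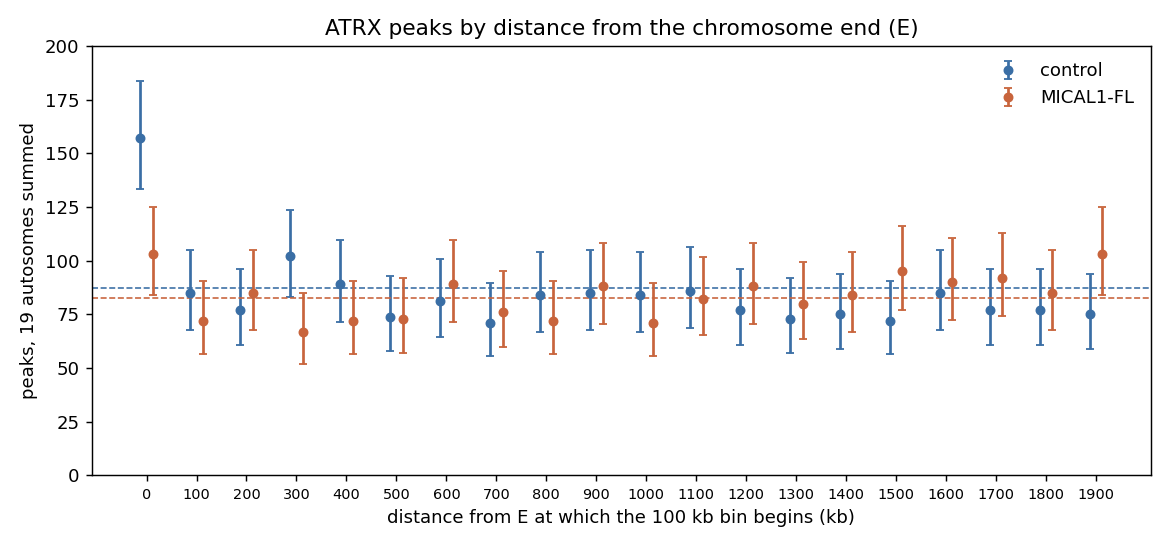
Points give peaks summed over the 19 autosomes in 100 kb bins by distance from the assembled end (E), with exact Poisson 95% intervals as bars and the number at the density of the rest of the autosomes as dashed lines. The control list reaches 157 peaks in the last 100 kb and the MICAL1-FL list 103, while the control bins further in lie between 71 and 102.

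Chromosome by chromosome, the last 100 kb held 1 to 20 control peaks (median 7) and 2 to 9 MICAL1-FL peaks (median 5). The control count was above the density of the rest on 16 autosomes, and the MICAL1-FL count on 11. Counts were highest on chromosome 16, with 20 in control and 9 in MICAL1-FL. Chromosome 14 had 15 and 5, chromosome 7 had 14 and 5, and chromosome 17 had 14 and 9. More peaks were in the control list on 14 autosomes and more in the MICAL1-FL list on 4, with 1 equal. All these counts of single autosomes include the peak that sets the assembled end. That was a control peak on 15 autosomes and a MICAL1-FL peak on 4, so the rule itself favours the control list here. The numbers of autosomes were not taken again without those peaks. In the last 20 kb there were 59 control peaks against 17.4 at the density of the rest, and 30 MICAL1-FL peaks against 16.5. Without the peaks that set the assembled end there were 44 and 26, which is 2.52 and 1.58 times the density of the rest.

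At the very end, the last 2 kb before the assembled end, the lists differed in which autosomes carried a peak. Of the 19 autosomes 17 carried a control peak there, 9 carried one of the MICAL1-FL list, with both on 7, control alone on 10 and MICAL1-FL alone on 2. A peak of the control list occurs in 8.85% of all 2 kb stretches of the autosomes and one of the MICAL1-FL list in 8.41%. The rule fixes much of this: on the 4 autosomes whose end was set by the MICAL1-FL list a control peak was present on 2, and on the 15 set by the control list a MICAL1-FL peak was present on 5.

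Many of the control peaks there were among the strongest of the list. The rule fixes that a peak lies there but does not use its strength. A peak with the authors' q-value at or below 0.001 is called strict here. In the control list 8 autosomes (2, 4, 6, 7, 10, 12, 14 and 18) had a strict peak in the last 2 kb. In the other list 2 did (chromosomes 2 and 4). Of all peaks in the last 2 kb, 8 of 23 in control and 2 of 10 in MICAL1-FL were strict. Over all autosomal peaks 0.103% and 0.104% were. Of all 2 kb stretches 0.00874% held a strict peak in either list, but most stretches held no peak, and the rule puts one in each last stretch. The control list set most of the ends, so the rule also favours it in these numbers of autosomes. Of the peaks that set the assembled end, 7 of the 15 control peaks and 1 of the 4 MICAL1-FL peaks were strict. Of the 8 strict control peaks, 4 were overlapped by a MICAL1-FL peak (50%, 15.7 to 84.3), and of the 105 strict control peaks elsewhere on the autosomes 79 were (75.2%, 65.9 to 83.1). The intervals overlap.

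The height of a peak is given here as depth, the number of stacked fragments at the summit, and its local background as the authors' peak caller modelled it. Both were worked back from the deposited fold and p-value. At the end of chromosome 7 (chr7:145340937-145341442) the control depth was 81 over a background of 19.9, a fold of 3.93, and no MICAL1-FL peak lay within 21651 bp of the end. This was the strongest control peak of all members, with a −log10 p of 24.7.

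Chromosome 2 ended with a peak in both lists. The control peak (chr2:182012744-182013188) had a depth of 104 over 35.6 and a fold of 2.87, and the MICAL1-FL peak had 114 over 32.6 and a fold of 3.42. Chromosome 4 (chr4:156356852-156357223) had a depth of 177 over 101.7 in control, a fold of 1.73, and 116 over 42.2 in MICAL1-FL, a fold of 2.71. These were the only ends that were strict in both lists.

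Chromosomes 12, 14 and 18 resembled chromosome 7 in having a strong control peak and no MICAL1-FL peak in the last 2 kb. Chromosome 18 had a depth of 86 over 27.7 (fold 3.03), chromosome 14 (chr14:124801566-124802214) 82 over 26.4 (fold 3.03), and chromosome 12 (chr12:120028689-120029005) 77 over 23.1 (fold 3.23). Tmem196, a transmembrane protein gene, has an end within 10 kb of the chromosome 12 peak. The nearest MICAL1-FL peaks lay 10737, 7387 and 29035 bp before the end of chromosomes 18, 14 and 12. The control backgrounds at these ends, 23.1 to 27.7, were far above the 1.62 that is the median over members, so the modelled background there was high too.

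The 2 remaining strict ends were lower. Chromosome 10 (chr10:130593968-130595008) had a control depth of 34 over 8.32 (fold 3.75), and the MICAL1-FL peak that overlapped it had 26 over 16.5 (fold 1.54). Chromosome 6 (chr6:149585339-149586577) had a depth of 15 over 1.62 in control, a fold of 6.10, and 9 over 1.62 in MICAL1-FL, a fold of 3.82. The chromosome 6 peak lies at the end of Gm21814, a predicted gene, and its fold was the highest of all control members. The 9 other autosomes with a control peak had depths of 5 to 36, the highest on chromosome 1.

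**Figure D3:**
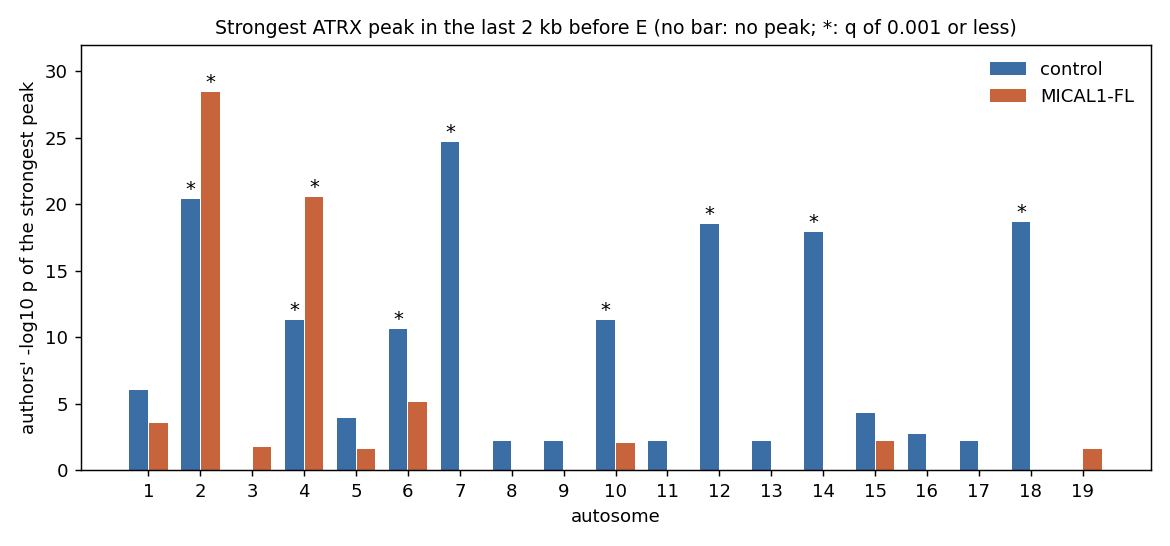
Bars give the authors' −log10 p of the strongest peak in the last 2 kb before the assembled end (E) of each autosome, by list, with no bar where there was no peak and a star where q was 0.001 or less. Stars stand over 8 control bars, led by chromosome 7 at 24.7, and over the MICAL1-FL bars of chromosomes 2 and 4, at 28.4 and 20.5.

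Further in, strict peaks were also a larger share of members than of all autosomal peaks, but at few places. Strict peaks made up 18 of the 1686 control members (1.07%, 0.634 to 1.68) and 12 of the 1667 MICAL1-FL members (0.720%, 0.372 to 1.25). Over all autosomal peaks the shares were 0.103% and 0.104%. Without the last 2 kb, 10 control and 10 MICAL1-FL members were strict (0.601% and 0.604%), and without the last 250 kb 5 and 3 were (0.356%, 0.116 to 0.829, and 0.208%, 0.043 to 0.606). The control strict members formed 14 places and the MICAL1-FL ones 7, counting peaks within 20 kb of each other as 1 place. Without the last 2 kb there were 6 places in each list, and without the last 250 kb 3 in control and 2 in MICAL1-FL. The strict peaks in the rest of the autosomes formed 63 and 67 places. The intervals above treat clustered peaks as independent, which they are not. The first 2 Mb with peaks held a larger share of strict peaks than the last, 2.03% of the control and 2.65% of the MICAL1-FL peaks there.

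Strict members mostly stood on high background: the background was above 10 in 15 of the 18 control and 11 of the 12 MICAL1-FL strict members. In the rest of the autosomes it was above 10 in 40 of 95 and 35 of 96 strict peaks. The part of repeats or mapping in this was not tested. Medians over all members, strict ones included, were close to those of the rest of the autosomes. The median depth was 5, the median width was 339 bp in control and 332 bp in MICAL1-FL (335 and 332 in the rest), and the median fold was 2.29 in both lists. Depth was 6 or less for 82.9% of the control members and 84.9% of those in MICAL1-FL (rest 83.4% and 85.9%). A q-value of 1 was held by 95.1% and 96.6% (rest 95.9% and 97.0%). A depth of at least 9 was reached by 2.73% of control members (rest 1.86%) and 2.64% of MICAL1-FL members (rest 1.43%).

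The interior strong places were few and lay near the same positions in both lists. On chromosome 2 a group of peaks lay 81.7 to 95.1 kb before the end, around Gm40034, a long non-coding RNA gene. Its member at chr2:181930826-181931451 had a depth of 160 over 75.4 in control (fold 2.11), and 123 over 53.7 in MICAL1-FL (fold 2.26). The member at chr2:181917363-181918088 had 148 over 83.7 in control (fold 1.76), and 137 over 45.3 in MICAL1-FL (fold 2.98).

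On chromosome 19, 53.8 kb before the end (chr19:61266900-61267212), the depth was 103 over 47.6 in control (fold 2.14). In the MICAL1-FL list the overlapping peak had 114 over 28.4 (fold 3.91), and its −log10 p of 33.5 was the highest of all MICAL1-FL members. The depths were close and the modelled backgrounds were not, so the folds cannot be read as a change in ATRX.

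Lars2, which encodes the mitochondrial leucyl-tRNA synthetase, held a strong peak in both lists (chr9:123461882-123462167). The control depth was 76 over 24.5 (fold 3.02) and the MICAL1-FL depth 68 over 16.5 (fold 3.94), with summits 7 bp apart. Tmem267, a transmembrane protein gene on chromosome 13, held 2 such pairs: 362 over 231.2 in control (fold 1.56) with 254 over 159.3 in MICAL1-FL (fold 1.59), and 116 over 51.8 (fold 2.22) with 103 over 39.6 (fold 2.56). The 362 was the highest depth of all members.

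Some strong members had no counterpart. The MICAL1-FL peak at chr1:195241620-195241951 had a depth of 97 over 26.9 (fold 3.52) and overlapped no control peak. Another at chr4:156341229-156341797, near the vomeronasal receptor gene Vmn2r129, had 18 over 3.46 (fold 4.26). In the control list the strict peak chr13:119428905-119429334, at the start of Paip1, had 12 over 1.62 (fold 4.96) and no MICAL1-FL peak overlapped it. Paip1 encodes a partner of the poly(A)-binding protein. The last 2 were outside the 10 strongest of their list and were named after their values were seen.

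Overlap between the lists was slightly more frequent at the ends than elsewhere. Of the control members 143 (8.48%, 7.20 to 9.91) shared at least 1 bp with a MICAL1-FL peak, against 6.85% of all autosomal control peaks and 6.83% of the rest (6.68 to 6.98). Of the MICAL1-FL members 143 (8.58%, 7.28 to 10.03) overlapped a control peak, against 7.23% of all and 7.21% of the rest (7.05 to 7.37). They formed 148 pairs, of which 95 had summits within 250 bp. Without the last 100 kb the shares were 7.65% (6.37 to 9.10) and 7.29% (6.05 to 8.69), with intervals that included the share of the rest. With peaks up to 1 kb apart counted as shared, the direction turned: for control 17.7% of members against 17.8% of the rest, and for MICAL1-FL 17.7% against 18.8%.

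The difference in overlap was larger among tall peaks, a class that held a larger part of strict peaks in members than in the rest. Of 46 control members with a depth of at least 9, 23 were overlapped (50%, 34.9 to 65.1), against 26.1% in the rest. Of 44 such MICAL1-FL members 21 were (47.7%, 32.5 to 63.3), against 29.5%. Among strict members, overlap was seen for 12 of 18 in control and 10 of 12 in MICAL1-FL, against 73.5% and 73.1% of all strict autosomal peaks. The rest held 95 strict beside 2014 tall peaks in control, and 96 beside 1472 in MICAL1-FL. The overlap of tall peaks was not taken without the strict ones. Chromosome 2 had the highest share, with 14 of 81 control members overlapped (17.3%, 9.78 to 27.3), and chromosome 6 followed with 11 of 74 (14.9%, 7.66 to 25.04).

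Members lay near gene ends a little more often than other peaks. A summit was within 1 kb of either end of a protein-coding gene for 120 control members (7.12%, 5.94 to 8.45) and 130 MICAL1-FL members (7.80%, 6.56 to 9.19), against 5.46% and 5.42% of all autosomal peaks. Within 250 bp the control share was 1.72% (1.15 to 2.46) against 1.56% in the rest, so no excess was seen there for control. For gene starts alone, examined after the values were seen, the numbers were 84 (4.98%, 3.99 to 6.13) and 97 (5.82%, 4.74 to 7.05), against 3.98% and 3.99%. The share inside genes was 43.0% and 44.3%, close to the 43.2% and 42.4% of the rest. The control and MICAL1-FL shares overlapped in their intervals. These shares of peaks were not adjusted for the number of genes in the stretch. Counted per gene there was no excess. Of the 510 protein-coding genes of the last 2 Mb, 119 had a control end peak and 122 a MICAL1-FL one. Over all autosomal protein-coding genes 27.7% and 26.5% had one, which are higher shares.

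The last 2 Mb held 510 protein-coding genes, of which 235 held at least 1 peak of the control list and 222 of the other list. Over all 20665 autosomal protein-coding genes 53.8% and 51.7% did. A peak in both lists was found in 157 genes (38.9% of all autosomal genes had one), and in neither list in 210 (33.4% of all autosomal genes). In control alone a peak was found in 78, and in MICAL1-FL alone in 65. No share over all autosomal genes was taken for these, so they cannot be read as particular to the last 2 Mb. An end peak in both lists was found at 41 genes, against 10.9% of all autosomal genes. The number of peaks in a gene depends on its length, so values per Mb of gene are given beside the counts of the genes with most peaks. Totals over a list are not scaled by length.

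**Figure D4:**
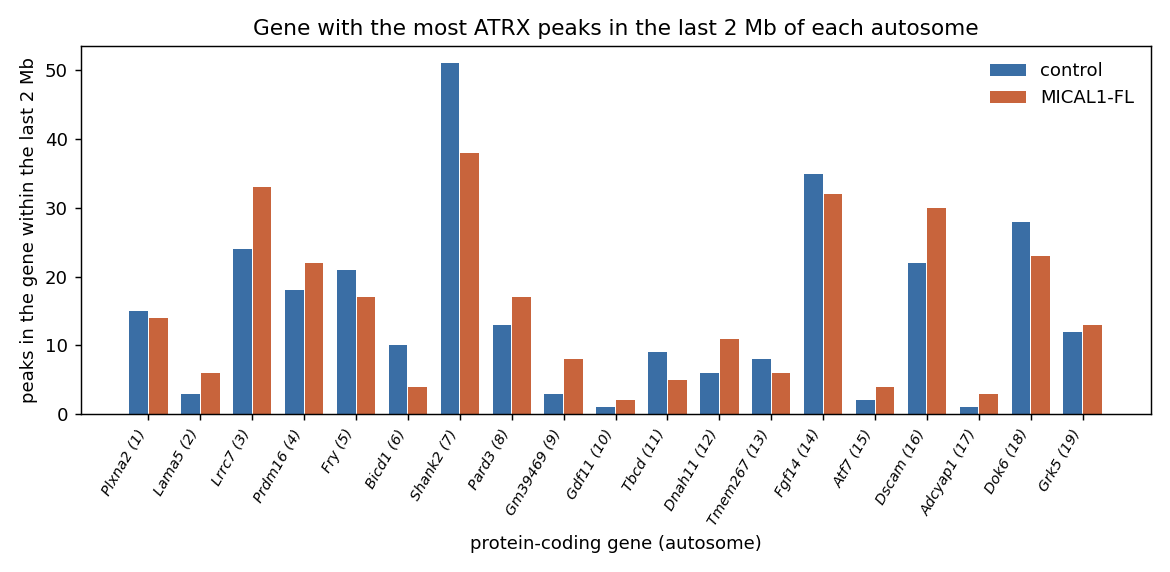
Bars give the number of control and MICAL1-FL peaks within the last 2 Mb in the gene with the most peaks on each autosome. Shank2 on chromosome 7 leads with 51 and 38 peaks, followed by Fgf14 on chromosome 14 with 35 and 32, while Gdf11 on chromosome 10 has 1 and 2.

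Of 32 listed genes of neuronal ion channels, receptors and the synapse, 20 lie in the last 2 Mb. Peaks were found in 18 of these in control and in 14 in MICAL1-FL, 187 and 172 peaks in all. Over all autosomal protein-coding genes 53.8% and 51.7% held one. The 20 genes had a median length of 47.6 kb, against 12.1 kb for all 510 genes of the last 2 Mb. The counts of genes were not adjusted for length. Shank2 had 51 control and 38 MICAL1-FL peaks (114 and 84.8 per Mb), the highest count of any gene and above the 44.4 and 43.9 per Mb of the last 2 Mb as a whole. Fgf14 had 35 and 32 (49.8 and 45.5 per Mb), and Lrrc7 had 24 and 33 (48.5 and 66.7 per Mb). Dscam, a neuronal adhesion molecule, had 22 and 30 (37.7 and 51.4 per Mb), and Dok6, an adaptor of the Ret receptor, had 28 and 23 (58.7 and 48.2 per Mb). Outside that list, Nalcn, the sodium leak channel, had 15 and 25 (42.7 and 71.1 per Mb).

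Several other genes that led their autosome or the whole count were on none of the gene lists. Those that were, such as Plxna2 and Prdm16, are given with their lists below. Fry, a scaffold that supports NDR kinases, had 21 control and 17 MICAL1-FL peaks (55.4 and 44.8 per Mb). Grk5, a kinase of G protein-coupled receptors, had 12 and 13 (58.1 and 63.0 per Mb), and Dnah11, a dynein heavy chain of cilia, had 6 and 11 in the window (35.3 and 64.7 per Mb). Itgbl1, an integrin beta-like gene, had 20 and 10 (62.7 and 31.4 per Mb), and Bicd1, an adaptor of dynein, 10 and 4, with ratio intervals that included 1 (0.209 to 1.12 and 0.092 to 1.39). Tbcd, a tubulin chaperone gene, had 9 and 5. On some autosomes the leading gene had few peaks: Adcyap1, which encodes the neuropeptide PACAP, had 1 and 3 on chromosome 17, Atf7, a bZIP transcription factor gene, had 2 and 4 on chromosome 15, and Gdf11, a TGF-beta family ligand gene, 1 and 2 on chromosome 10.

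Axon guidance, adhesion and polarity genes held more MICAL1-FL than control peaks. Of 18 listed, 11 lie in the last 2 Mb, with a median length of 75.5 kb. Of these, 9 held a peak in each list, with 49 control and 81 MICAL1-FL peaks, beside 736 and 756 in all 510 genes. Over all autosomal protein-coding genes 53.8% (control) and 51.7% (MICAL1-FL) held one, and the 510 genes had a median length of 12.1 kb. Stard13 had 11 and 23 (28.2 and 58.9 per Mb), a ratio whose interval (0.98 to 4.75) included 1. Nrp1, a co-receptor of semaphorins and VEGF, had 1 and 8, with an interval of 1.07 to 355 that rests on a single control peak, and it was named after its counts were seen. Pard3, a cell polarity scaffold, had 13 and 17 in the window (41.7 and 54.5 per Mb), and Plxna2, a semaphorin receptor, had 15 and 14 (76.1 and 71.0 per Mb). Lama5, a laminin chain of basement membranes, had 3 and 6.

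Fibroblast growth factor genes and their neighbours, 11 of 12 listed, held 44 control and 56 MICAL1-FL peaks in 4 and 7 genes. The shares of all autosomal protein-coding genes with a peak were 53.8% and 51.7%. Fgf14 accounted for most of the peaks in these 11 genes. Ano1, a calcium-activated chloride channel, had 6 and 15 (36.7 and 91.8 per Mb), with an interval for the ratio of 0.92 to 7.86. Kcnq1, a potassium channel, had 1 of its 9 peaks in each list in the window, and the cyclin gene Ccnd1 had 2 in each. Fgf4 and Fgf15 had none inside the gene, and a MICAL1-FL peak (fold 2.68) lay within 1 kb of the start of Fgf4.

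Transcription factor and chromatin genes, 21 of 26 listed, held 35 control and 41 MICAL1-FL peaks in 11 and 9 genes. Prdm16, a zinc finger regulator, had 18 and 22 of them in the window (64.3 and 78.5 per Mb), and Ski, a corepressor of SMAD signalling, had 4 and 4. Zbtb46 had 5 and 1 and Myt1, a neural zinc finger factor, 1 and 4. Of the 9 Hoxc genes, homeobox genes that pattern the body axis, 3 held peaks in control and 1 in MICAL1-FL. Of the 9 Zfp genes 7 held a peak in each list. These numbers of genes stand beside 53.8% (control) and 51.7% (MICAL1-FL) of all autosomal protein-coding genes with a peak.

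Telomere, replication and genome stability genes were few in the last 2 Mb. Of 28 listed, 6 lie in the last 2 Mb: Brca2, Dido1, Pds5b, Rfc3, Rtel1 and Rttn. They held 5 control peaks in 5 genes and 3 MICAL1-FL peaks in 3. Rtel1, a helicase that unwinds telomere loops and G-quadruplexes, had 1 control and 0 MICAL1-FL peaks. Pds5b, a cohesin regulator, and Rttn, a centriole protein gene, had 1 in each list.

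Chemokine receptor and immune genes, 16 of 20 listed, had 12 control and 9 MICAL1-FL peaks in 5 and 6 genes. Of all autosomal protein-coding genes 53.8% and 51.7% held a peak. Cd226, an adhesion receptor of lymphocytes, had 3 and 4, and Cd46, a complement regulator, 5 and 1. All 6 genes named Ccr lacked a peak in both lists, as did 210 of the 510 genes of the last 2 Mb. Among the other families, 3 of 6 Vmn genes had no peak in either list. None of the 27 microRNA hairpins in the last 2 Mb overlapped a peak, and over all 919 autosomal hairpins 4.46% did so in control and 3.59% in MICAL1-FL. Within 1 kb, 3 had a control peak (16.5% of all hairpins) and 9 had one of the MICAL1-FL list (12.9%).

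The genes with an end peak in both lists were led by Lars2 and Gm21814, described above. Lrrc7 had a fold of 3.33 in control and 3.44 in MICAL1-FL, and Plxna2 3.43 and 3.07. Actg1, which encodes the gamma form of actin, had 3.57 and 2.69. Igfbp6, a binding protein of insulin-like growth factors, and Rdh5, a retinol dehydrogenase gene, each had 3.05 and 3.06. Eif3a, a translation initiation factor subunit gene, had 3.86 and 1.91. Gm20783 and LOC108167694, neighbours on chromosome 9, each had 3.43 and 3.44.

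Promoters in the last 2 Mb, taken as 250 bases before to 50 after each of 688 starts of 569 genes, held a control peak less often than elsewhere and a MICAL1-FL peak about as often. A control peak overlapped 45 (6.54%, 4.81 to 8.65), against 9.58% of all autosomal promoters. A MICAL1-FL peak overlapped 61 (8.87%, 6.85 to 11.2), against 9.71%. Both overlapped 9 (1.31%, 0.600 to 2.47), against 2.03%.

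These 9 promoters were rich in G and C. Their median GC content was 76.7%, against 67.3% for promoters with a control peak and 55.3% for all promoters of the last 2 Mb. In the rest it was 68.3% for promoters with a peak in both lists. The G-quadruplex motif capitalised above was in 7 of the 9, against 18.3% of all last 2 Mb promoters and 18.8% of those in the rest. This counts motifs in the window, which need not lie under a peak. Actg1 and 0610009L18Rik share 1 motif, counted for both. At Gnb1 the control and MICAL1-FL peaks covered 6 and 25 bases of the window, and at Zfp131 33 and 8, away from the motif. Peaks of both lists covered it only at Zfp512b, Sinhcaf and 3110070M22Rik. In the rest, 42.0% of the promoters with a peak in both lists held it. TTAGGG or its complement CCCTAA was in 10.6% of promoters in the last 2 Mb and 10.6% in the rest, and in 0 of the 9. Of the last 2 Mb promoters with a control peak, such as that of Fgf14, 2 of 45 held it (4.44%, 0.543 to 15.1). With a MICAL1-FL peak, 9 of 61 did (14.8%, 6.98 to 26.2).

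The promoters printed above show the range. Over Zfp512b the peaks covered the whole window, with a control depth of 7 and fold of 3.05 and a MICAL1-FL depth of 5 and fold of 2.29. Over Lrrc7 both depths were 8, with folds of 3.33 and 3.44, and at Sinhcaf both were 7, with 3.05 and 2.87. At 3110070M22Rik both depths were 16, the highest of the 9, with folds of 2.38 and 1.80. Fgf14 had a control depth of 8 and a fold of 3.43, and no MICAL1-FL peak overlapped its window. The other members of the 9 were Gnb1, a G protein beta subunit gene, LOC108167694, Actg1 with 0610009L18Rik, which share a region, and Zfp131.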

How the data were processed

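The authors deposited 1 peak list per ChIP library, made from paired-end reads per the labels' protocols. The submitters' processing notes name MACS 1.4.2, Bowtie 1.3.0, ChIPseeker 1.26.2 and SAMtools 1.9 with no settings. The genome build was not given in the sources used here. Each row of the deposited lists, which follow the narrowPeak layout without a header, gives a peak's position, a score, a fold ratio over background, a −log10 p and a −log10 q. The score deposited by the authors was the whole part of 10 times −log10 p in all rows of both lists, and the largest p-value kept was 0.0498 in control and 0.0496 in MICAL1-FL. The authors' fold was taken as (depth + 1) / (background + 1), which no label states. Depth and background were solved from it and a Poisson p, and depth came within 0.05 of a whole number for 100% of members. Total reads per library are unknown.

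Peaks were counted by position and gene with Python 3.11.15, pandas 2.3.3, numpy 2.4.6 and scipy 1.17.1, and plotted with matplotlib 3.10.9. Density ratios have exact conditional binomial intervals, shares exact Clopper-Pearson intervals and counts exact Poisson intervals. They cover counting error only, and 1 library per condition allows no test. Counting was tested on simulated data. Gene positions and promoters are RefSeq's (GRCm38.p6). Peaks were 6.10 (control) and 6.81 (MICAL1-FL) times as dense within 250 bp of a gene start as 5 to 10 kb away, so the positions fit that build. Promoter sequences were matched by symbol, 31396 on the autosomes.

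The members and gene lists were chosen with earlier results of these data known. Named are the 10 strongest peaks of each list, the 10 strongest overlapping pairs, the 10 genes with most peaks, the 10 with an end peak in both lists, up to 4 genes per gene list, and the 3 densest and 3 sparsest autosomes. Alternatives varied the window, threshold, overlap, gene distance and autosomes.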

Additional observations from a re-analysis of the deposited data

How the results depend on the processing

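No paired analysis was possible because each condition is 1 library. The cause of the shifts given here was not tested. The control density ratio of 0.967 was 1.04 for the last 1 Mb, 1.06 (1.02 to 1.10) for 3 Mb and 1.12 (1.09 to 1.16) for 5 Mb, and the MICAL1-FL ratio was 1.09 for 5 Mb and 1.09 with −log10 p of at least 3. Without the last 100 kb, chosen after seeing the data, the control ratio was 0.923 (0.877 to 0.971). The MICAL1-FL to control ratio of the last 2 Mb relative to the rest, 1.04, was 0.930 for 1 Mb, 0.969 for 5 Mb and 1.08 (1.01 to 1.16) without the last 100 kb. Leaving out single autosomes kept the density ratios at 0.932 to 0.987 and 0.982 to 1.03; the control interval then fell below 1 without chromosome 7, 14 or 16, and the MICAL1-FL interval lay above 1 for the last 3 Mb (1.05, 1.01 to 1.09).

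The share of members overlapping the other list was 5.75% (control; rest 4.45%) and 5.82% (MICAL1-FL; rest 4.71%) for summits within 250 bp, and 6.76% (rest 5.44%) and 6.98% (rest 5.73%) with −log10 p of at least 2. For peaks up to 1 kb apart it was 17.7% (rest 17.8%) and 17.7% (rest 18.8%), a turn of direction. Near gene ends the share was 1.72% (rest 1.56%) and 2.46% (rest 1.74%) within 250 bp, 14.2% (rest 10.8%) and 14.8% (rest 10.7%) within 3 kb, and 4.98% and 5.82% (rest 3.97% and 3.96%) for gene starts alone; it was 9.66% (rest 5.39%) for MICAL1-FL in the last 1 Mb.

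Alternatives added after seeing the data were run on the last 100 kb and the last 2 kb. The ratio in the last 100 kb relative to all autosomal peaks, 0.693, ran from 0.629 to 0.838 over 25 alternatives, and from 0.661 to 0.729 without single autosomes. Its interval included 1 with the last 250 kb and with −log10 p of at least 3. Ends with a strict peak numbered 8 to 9 in control and 2 in MICAL1-FL. Depth limits most members, at 4 to 6 fragments, and a missing peak is not an absence of ATRX.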
